A study of Mus musculus with 2 samples.

Results

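The voltage-gated calcium channel alpha subunits are the pore-forming proteins of the channels, and the 10 mouse genes that encode them, Cacna1a to Cacna1i and Cacna1s, were taken by name from the 55536 annotated genes. All 10 were found in the gene tables, and their annotation held 117 transcripts, of which 72 were protein coding. The libraries were total RNA-seq of whole adrenal gland from female mice of strain B6CASTF1/J aged 2 months, with no treatment or allele named in the labels. There were 2 libraries of this 1 group, called library 1 and library 2 after their biological replicate numbers, and no comparison of conditions was possible. The labels conflict on whether the glands came from 1 animal or from separate animals, so the spread between the libraries may be technical.

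Each alpha subunit folds into a ring of repeats I to IV around a calcium-selective pore that opens when the membrane depolarises. Cav1 or L-type channels (Cacna1s, Cacna1c, Cacna1d, Cacna1f) and Cav2 channels (Cacna1a, Cacna1b, Cacna1e) open at strong depolarisation, and Cav3 or T-type channels (Cacna1g, Cacna1h, Cacna1i) open near the resting potential. In the adrenal gland, calcium entry through such channels is known to drive aldosterone synthesis in zona glomerulosa cells and catecholamine release from chromaffin cells, and gain-of-function mutations of human CACNA1D and CACNA1H are known causes of aldosterone excess.

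The pore sequences separate the 2 most abundant genes described below, Cacna1c and Cacna1h. The codon of the selectivity filter is shown in capitals within 33 bases of coding sequence from transcripts Cacna1c-216 (chromosome 6, minus strand) and Cacna1h-205 (chromosome 17, minus strand) of the GENCODE M21 annotation. GAA and GAG encode glutamate, and GAT and GAC encode aspartate.
Cacna1c repeat I: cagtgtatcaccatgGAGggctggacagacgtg
Cacna1c repeat II: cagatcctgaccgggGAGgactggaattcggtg
Cacna1c repeat III: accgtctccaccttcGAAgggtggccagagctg
Cacna1c repeat IV: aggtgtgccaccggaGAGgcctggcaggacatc
Cacna1h repeat I: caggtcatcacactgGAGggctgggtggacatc
Cacna1h repeat II: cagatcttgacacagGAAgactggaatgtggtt
Cacna1h repeat III: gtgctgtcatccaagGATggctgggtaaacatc
Cacna1h repeat IV: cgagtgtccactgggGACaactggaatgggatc
Cacna1c carries glutamate codons in every repeat, the ring typical of L-type channels. Cacna1h carries aspartate codons in repeats III and IV, the ring typical of T-type channels.

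Library 1 held 34517566 and library 2 held 36234838 expected counts, the estimated number of reads from each gene summed over genes. The markers of adrenal cortex and of chromaffin cells were all present at 1 TPM (a length-corrected transcript share) or more in both libraries, at 5 of 5 and 7 of 7 genes. The libraries were not alike in tissue makeup. The 7 chromaffin markers summed to 1829 TPM in library 1 and 1494 TPM in library 2. On scaled counts 7 of 7 were higher in library 1, beside 6216 of 12171 genes with a mean of at least 100 counts. The 3 brown adipocyte markers summed to 554 TPM in library 1 and 1118 TPM in library 2, and the 4 kidney markers to 19.7 TPM and 0.18 TPM. The part of these differences in any value below was not tested. TPM is a share of a fixed total, of which the 7SL RNA genes took 33.1% in library 1 and 20.4% in library 2.

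An L-type and a T-type gene made up most of the alpha subunit RNA in the gland. Summed over the 10 genes, the level was 49.0 TPM in library 1 and 67.4 TPM in library 2 (58.2 ± 13.0 TPM, SD, n = 2). Cacna1c and Cacna1h together held 87.5% of it in library 1 and 89.9% in library 2. Cav1 genes held 54.4% ± 1.96 of the summed TPM, Cav2 genes 4.22% ± 0.411 and Cav3 genes 41.3% ± 1.55 (SD, n = 2 each). In these whole-gland libraries, fewer cells of a type and less RNA per cell cannot be told apart. At 1 TPM or more in both libraries were 4 of the 10 genes, beside 23.1% of all annotated genes and 53.5% of the 22015 nuclear protein-coding genes. The gene counts of all 10 members were whole numbers within 0.005, so no read was divided between a member and another gene.

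**Figure D1:**
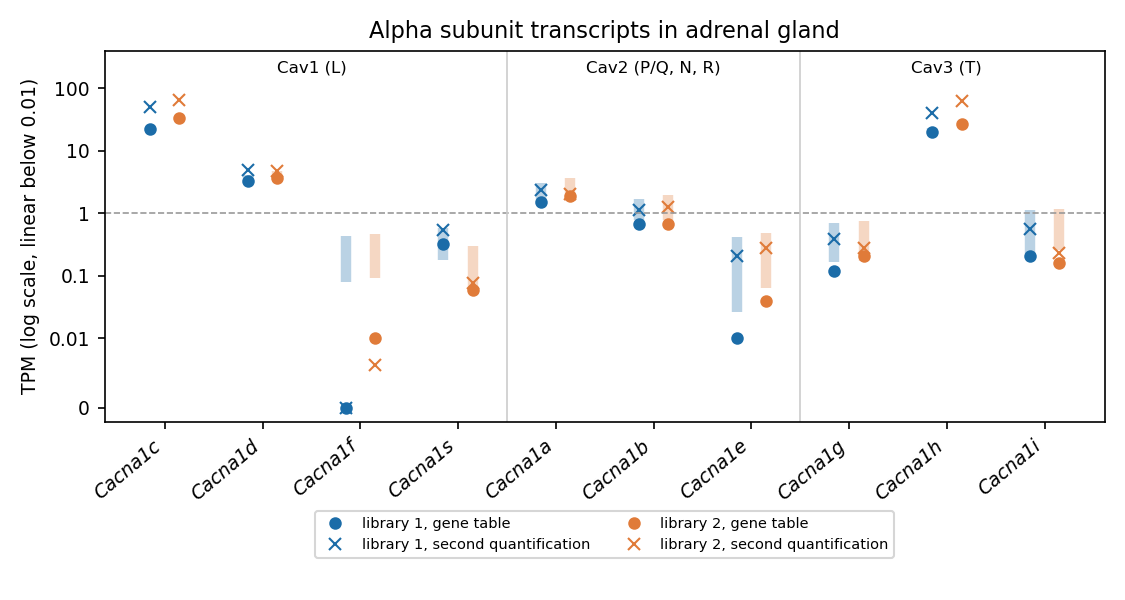
Level of each alpha subunit gene in TPM (vertical axis, log scale, linear below 0.01) in library 1 (blue) and library 2 (orange), with circles for the gene table, crosses for the second quantification and shaded bars for the deposited interval of the posterior mean TPM; the dashed line marks 1 TPM. Cacna1c and Cacna1h lie above 20 TPM in both libraries, Cacna1d and Cacna1a between 1 and 4 TPM in the gene table, and the other 6 genes below 1 TPM in the same table.

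Among the L-type genes, Cacna1c (Cav1.2; chr6:118587240-119196418, minus strand, mm10), the channel of heart and smooth muscle that endocrine cells also use, had 4548 counts in library 1 and 5119 counts in library 2. Its level was 22.4 TPM in library 1 and 33.8 TPM in library 2, with deposited intervals of 20.7 to 23.8 TPM and 31.6 to 35.6 TPM. Both libraries were high, library 2 the higher, and the intervals of the libraries did not overlap. How many of all genes lack such overlap was not counted. On protein-coding transcripts alone the levels were 12.96 TPM in library 1 and 15.05 TPM in library 2. By mean TPM it ranked 2419th of 22015 nuclear protein-coding genes.

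Cacna1d (Cav1.3; chr14:30039939-30491455, minus strand), which opens at less depolarised potentials than Cacna1c channels, had 642 counts in library 1 and 651 counts in library 2. Its level was 3.26 TPM in library 1 and 3.71 TPM in library 2, a rank of 9456. The libraries were close, and their deposited intervals, 2.96 to 4.19 TPM and 3.43 to 4.76 TPM, overlapped.

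Cacna1s (Cav1.1; chr1:136052750-136119822, plus strand), the voltage sensor of skeletal muscle contraction, had 22 counts in library 1 and 10 counts in library 2, at 0.32 TPM and 0.06 TPM. Both values were low, with library 1 the higher. The 5 skeletal muscle markers summed to 0.86 TPM in library 1 and 0.88 TPM in library 2, with 0 of 5 at 1 TPM and Tnnt3 at 0 counts in both. Cacna1f (Cav1.4; chrX:7607083-7635196, plus strand), the channel of photoreceptor synapses, had 0 counts in library 1 and 1 count in library 2. A count of 0 in library 1 allows up to 3 counts, or 0.0877 CPM, so Cacna1f was at or below what this depth can detect in either library.

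The Cav2 genes encode the channels that trigger transmitter release at synapses and part of catecholamine release in chromaffin cells. Cacna1a (Cav2.1, P/Q-type; chr8:84388440-84640246, plus strand) had 215 counts in library 1 and 203 counts in library 2, at 1.52 TPM and 1.93 TPM. Cacna1b (Cav2.2, N-type; chr2:24603887-24763152, minus strand) had 205 counts in library 1 and 160 counts in library 2, at 0.68 TPM in both. Cacna1e (Cav2.3, R-type; chr1:154390731-154884501, minus strand) had 3 counts in library 1 and 18 counts in library 2, at 0.01 TPM and 0.04 TPM. The deposited intervals of Cacna1a overlapped between the libraries, as did those of Cacna1b. Cacna1a and Cacna1b were thus low but well counted, and Cacna1e in library 1 sat at the limit of 3 counts. On protein-coding transcripts alone Cacna1a fell below 1 TPM, at 0.73 TPM in library 1 and 0.69 TPM in library 2. Cacna1b then had 0.68 TPM in both. Cacna1a-205, a noncoding transcript of 249 bases, gave 0.31 TPM and 0.63 TPM of the Cacna1a level from 1.61 and 3.13 counts. For genes as rare as Cacna1b and Cacna1e the deposited interval goes with the posterior mean and can lie above the TPM value, as it does for Cacna1b at 0.80 to 1.68 TPM in library 1.

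Among the T-type genes, Cacna1h (Cav3.2; chr17:25374285-25433783, minus strand) stood alone. It had 4575 counts in library 1 and 5293 counts in library 2, at 20.4 TPM and 26.7 TPM, a rank of 2941. Library 2 was the higher, and the deposited intervals, 19.2 to 23.3 TPM and 24.7 to 29.8 TPM, did not overlap, again with no count over all genes.

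Cacna1i (Cav3.3; chr15:80287238-80398279, plus strand) had 39 counts in library 1 and 51 counts in library 2, at 0.21 TPM and 0.16 TPM. Cacna1g (Cav3.1; chr11:94408391-94474198, minus strand) had 17 counts in each library, at 0.12 TPM in library 1 and 0.21 TPM in library 2. Both genes, known from thalamic and other brain neurons, were far below Cacna1h in both libraries. Their counts were too few to rank them against each other.

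By mean TPM the order was Cacna1c, Cacna1h, Cacna1d, Cacna1a, Cacna1b, Cacna1s, Cacna1i, Cacna1g, Cacna1e and Cacna1f. Neighbours were called apart under 2 conditions. The lower library value of one gene had to lie above the higher library value of the other. The deposited intervals had to be without overlap in either library. By that rule 2 of 9 neighbour pairs were apart, Cacna1h above Cacna1d and Cacna1b above Cacna1s. The other 7 pairs did not meet both conditions. For Cacna1d over Cacna1a, Cacna1a over Cacna1b and Cacna1g over Cacna1e the library values met the first condition, but the deposited intervals overlapped. The rest, Cacna1c against Cacna1h included, did not meet the first condition, which sets values of different libraries against each other. Within each library Cacna1c was above Cacna1h. The levels were 22.4 TPM against 20.4 TPM in library 1 and 33.8 TPM against 26.7 TPM in library 2. The deposited intervals of Cacna1c and Cacna1h overlapped in library 1 and were apart in library 2. Counting protein-coding transcripts alone, an alternative chosen after seeing the data, turned that pair round, since Cacna1h then had 16.1 TPM in library 1 and 23.8 TPM in library 2, and Cacna1c had 13.0 TPM and 15.1 TPM. The Cav3 share of the summed TPM was then 53.8%. In library 2, 4.73 TPM of the Cacna1h coding level came from Cacna1h-207. This coding transcript of 879 bases had 122 counts there and 0 counts in library 1. On transcripts of 2000 bases or more, also chosen after seeing the data, Cav3 genes held 46.9% and Cav1 genes 49.4%. Cacna1h stayed ahead of Cacna1c on these transcripts, with 15.7 TPM against 14.7 TPM in library 1 and 19.0 TPM against 16.1 TPM in library 2.

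The transcript classes show where that turn lies. For Cacna1c, protein-coding transcripts held 90.1% of the gene's counts in library 1 and 86.9% in library 2, but 57.8% and 44.5% of its TPM. A single short transcript held most of the remaining TPM: Cacna1c-218, a processed transcript of 954 bases with no annotated coding sequence, had 186 counts in library 1 and 408 counts in library 2. On the TPM scale, which divides by length, these counts came to 6.23 TPM in library 1 and 14.4 TPM in library 2, or 27.8% and 42.7% of the gene. The second quantification gave it 354 estimated counts in library 1 and 662 in library 2. It begins at the upstream start of the gene, has inner exons that 18 annotated Cacna1c transcripts each hold, itself included, and ends in an exon of its own at chr6:118946163-118946371 (minus strand, mm10). Its first exon, in its annotated bounds, is also held by no other transcript. The last exon is printed because it is the transcript's own 3′ end.
Cacna1c-218 last exon: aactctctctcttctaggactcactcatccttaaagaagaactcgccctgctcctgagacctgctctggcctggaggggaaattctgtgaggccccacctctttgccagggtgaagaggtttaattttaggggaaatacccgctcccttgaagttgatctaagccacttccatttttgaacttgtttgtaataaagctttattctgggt

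For Cacna1h, protein-coding transcripts held 97.6% of counts in library 1 and 98.7% in library 2, and 78.5% and 89.1% of TPM. Cacna1h-205 had 4309 counts in library 1 and 5054 counts in library 2 and so carried most of the gene's counts. Cacna1h-201, which lies wholly within Cacna1h-205 and is shorter by 10 bases, had 0 counts in both libraries in that table, against 2145 and 1596 estimated counts in the second quantification. The division between these transcripts therefore differed between the quantifications. By TPM the second quantification gave Cacna1h-205 34.0% of the gene in library 1 and 29.0% in library 2. Retained-intron transcripts held 17.1% and 33.7% there. In library 2 the retained-intron transcript Cacna1h-204, of 412 bases, led with 29.5% from 60 estimated counts.

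Cacna1d differed from the other abundant members in that its annotated coding transcripts held only 53.9% of counts in library 1 and 58.1% in library 2. Retained-intron transcripts held 26.3% and 24.3% of its counts, and transcripts annotated for nonsense-mediated decay 17.9% and 17.6%. The second quantification gave retained-intron transcripts of Cacna1d 5.88% of estimated counts in library 1 and 5.22% in library 2, so this share was lower there in both. The share of transcripts annotated for nonsense-mediated decay was higher there, at 27.8% and 30.6%. Coding transcripts held 64.3% and 63.6%. For Cacna1a, coding transcripts held 92.9% of counts in library 1 and 87.6% in library 2, against 48.0% and 35.8% of TPM. In the 4 genes together, counts were mostly on coding transcripts and the TPM share of coding transcripts was lower than their count share.

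**Figure D2:**
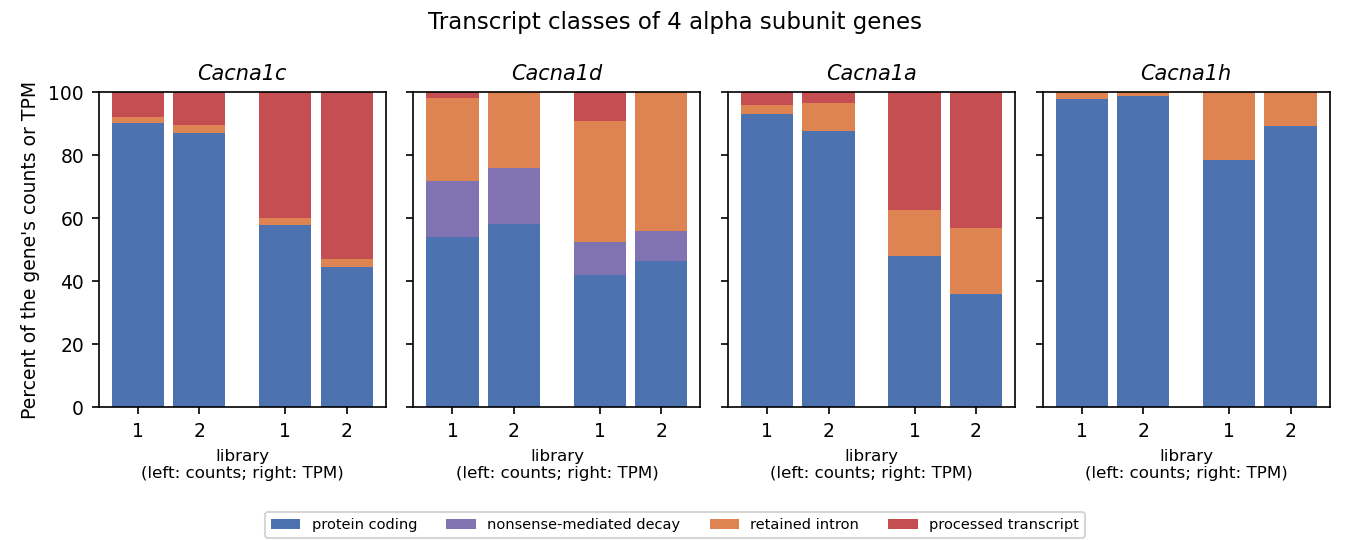
Percent of each gene's expected counts (left pair of bars) and of its TPM (right pair) held by each annotated transcript class, for libraries 1 and 2. Protein-coding transcripts of Cacna1c hold 90.1% and 86.9% of counts but 57.8% and 44.5% of TPM, and Cacna1d alone of these 4 genes has a share of transcripts annotated for nonsense-mediated decay.

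Over all members, 60 of the 117 transcripts had 0 counts in both libraries and 25 had at least 10 counts in both. Of the 8 genes with at least 10 counts in both libraries, 1, Cacna1a with Cacna1a-201, had the same leading transcript by TPM in both libraries and both quantifications. Among protein-coding transcripts alone the number was 4 of 8, and it was 5 of 8 when the leading transcript was chosen by counts. The matching shares over all genes and all transcripts are not given, so these numbers are not read as traits of the members.

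Coding transcripts of Cacna1c came mainly in 2 forms with different exon choices. Cacna1c-207, of 13162 bases from the upstream start, had 1874 counts in library 1 and 2013 counts in library 2, at 4.10 TPM and 4.67 TPM. Cacna1c-216, of 7338 bases from the middle start, had 1951 counts in library 1 and 1842 counts in library 2, at 7.71 TPM and 7.70 TPM. The forms were close in counts, and per length Cacna1c-216 was the higher in both libraries. They differ at the 3′ end, which lies at chr6:118587240 for Cacna1c-207 and at chr6:118593647 for Cacna1c-216. They also differ in 3 pairs of mutually exclusive exons. These are known to encode the S6 segment of repeat I, the S2 segment of repeat III and the S3 segment of repeat IV, and to alter gating and drug block. The pairs are printed from the annotation, 5′ to 3′ on the minus strand of chromosome 6, with bases that differ between the exons of a pair in capitals. In mm10, the repeat I exons lie at chr6:118742265-118742368 for Cacna1c-207 and chr6:118741871-118741974 for Cacna1c-216, the repeat III exons at chr6:118674346-118674405 and chr6:118674555-118674614, and the repeat IV exons at chr6:118638427-118638510 and chr6:118637730-118637813.
Repeat I S6, exon of Cacna1c-207: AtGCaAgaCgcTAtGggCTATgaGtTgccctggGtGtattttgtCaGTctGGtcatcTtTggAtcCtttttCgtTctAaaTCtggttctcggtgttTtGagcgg
Repeat I S6, exon of Cacna1c-216: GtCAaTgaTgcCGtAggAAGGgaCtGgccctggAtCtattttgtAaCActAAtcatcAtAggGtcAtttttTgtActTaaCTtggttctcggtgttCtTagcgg
Repeat III S2, exon of Cacna1c-207: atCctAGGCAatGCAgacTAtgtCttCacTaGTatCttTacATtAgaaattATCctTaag
Repeat III S2, exon of Cacna1c-216: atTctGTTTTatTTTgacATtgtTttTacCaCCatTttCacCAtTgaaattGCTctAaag
Repeat IV S3, exon of Cacna1c-207: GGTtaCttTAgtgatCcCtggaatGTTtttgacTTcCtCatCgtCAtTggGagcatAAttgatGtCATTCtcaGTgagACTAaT
Repeat IV S3, exon of Cacna1c-216: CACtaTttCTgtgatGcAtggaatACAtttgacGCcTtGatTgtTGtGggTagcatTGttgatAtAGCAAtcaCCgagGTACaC
The exons of the repeat I pair are 104 bases long and identical at 69.2% of positions. Those of the repeat III pair are 60 bases long and those of the repeat IV pair 84 bases, each identical at 58.3%.

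Over all transcripts that hold 1 exon of a pair, the exon of Cacna1c-207 held 31.6% of TPM in library 1 and 30.5% in library 2 for repeat I. For repeat III it held 37.1% in library 1 and 37.8% in library 2, and for repeat IV 36.01% and 38.96%. The exon of Cacna1c-216 was thus the commoner on the TPM scale in every pair and both libraries. By counts the repeat III and IV pairs were near balance, with 49.98% and 50.5% for repeat III and 49.3% and 51.4% for repeat IV, and repeat I stood at 45.4% and 44.6%. These shares come from reads assigned to whole transcripts, not from junction reads, so the pairs are not independent of each other. Reads outside the exons, such as those on the longer 3′ end of Cacna1c-207, also enter the shares, and their part was not tested.

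Cacna1c-216 also holds a 75-base exon that Cacna1c-207 lacks, at chr6:118715903-118715977 (minus strand). This exon encodes part of the loop between repeats I and II and is known from arterial smooth muscle.
Cacna1c loop exon: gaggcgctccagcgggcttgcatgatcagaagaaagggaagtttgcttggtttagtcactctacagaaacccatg
Transcripts with it held 65.9% of the TPM of transcripts spanning the site in library 1 and 66.5% in library 2, and 68.9% and 68.7% in the second quantification. By counts their share was nearer balance, at 52.8% in library 1 and 53.2% in library 2, and 56.1% and 55.9% in the second quantification. Of the 5 smooth muscle and mural markers, 4 reached 1 TPM, the list summed to 60.8 TPM in library 1 and 62.5 TPM in library 2, and the most abundant were Tagln and Mylk. The part of such cells, and of reads outside the exon, in the exon share was not tested.

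**Figure D3:**
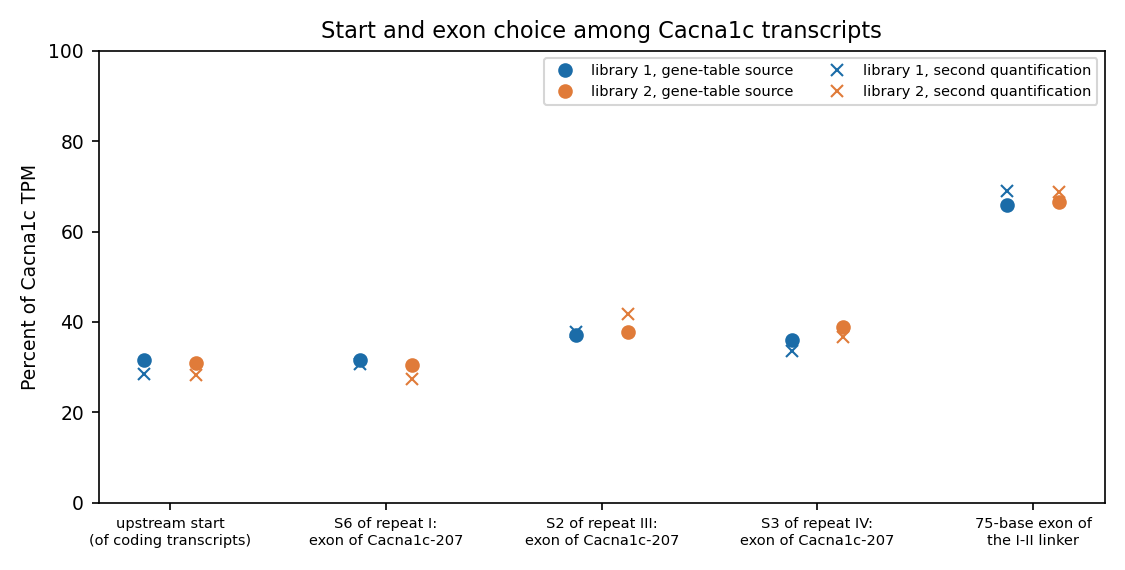
Shares among Cacna1c transcripts by TPM (percent, vertical axis) in library 1 (blue) and library 2 (orange). Circles show the transcript table that goes with the gene table, and crosses the second quantification. The first share is that of the upstream start among coding transcripts. The next 3 are those of the exon of Cacna1c-207 among transcripts that hold 1 exon of a pair. The last is that of the 75-base loop exon among transcripts spanning the site, so no point is a share of the gene's whole TPM. The first 4 shares lie between 27.4% and 41.7% and the loop exon between 65.9% and 68.9%.

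Counts of Cacna1c divided between transcripts from a pair of main starts. Transcripts from the upstream start, known for the longer amino terminus of the heart channel, held 45.3% of Cacna1c counts in library 1 and 47.3% in library 2. Those from the middle start, known for the shorter amino terminus of brain and smooth muscle, held 45.5% and 42.2%. A further start, downstream of both, held 3.25% and 2.64%. The main starts were thus near each other by counts, but not per length. On the TPM scale the upstream start, which includes the short Cacna1c-218, held 46.1% of the gene in library 1 and 56.5% in library 2, and the middle start 36.8% and 27.2%. Over coding transcripts alone the order turned round, with 31.6% of TPM in library 1 and 31.0% in library 2 from the upstream start and 63.6% and 61.1% from the middle start. The order of the starts therefore depended on the scale and on the transcripts included. All coding counts from the upstream start were on Cacna1c-207, whose 3′ end at chr6:118587240 lies beyond that of every other Cacna1c transcript. Cacna1c-210 and Cacna1c-212, with the same start and 6507 coding bases but a nearer 3′ end, had 0 counts in both libraries. The part of the longer 3′ end in the start shares was not tested.

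RefSeq promoter sequences, 250 bases before to 50 bases after a start on GRCm38.p6, were given for 7 of the 10 genes, with 10 promoters in all. The promoters of both main Cacna1c starts are printed because the gene's counts divide between them. Capitals mark the motifs searched on both strands, which were the TATAAA box of core promoters, the cyclic AMP response element TGACGTCA, the Nr5a1 site CAAGGTCA and the GGGCGG box bound by Sp1. Matches may overlap, and a match is a description of the letters only. The upstream promoter lies at chr6:119196360-119196659 and the middle one at chr6:119108446-119108745, both on the minus strand.
Cacna1c upstream promoter: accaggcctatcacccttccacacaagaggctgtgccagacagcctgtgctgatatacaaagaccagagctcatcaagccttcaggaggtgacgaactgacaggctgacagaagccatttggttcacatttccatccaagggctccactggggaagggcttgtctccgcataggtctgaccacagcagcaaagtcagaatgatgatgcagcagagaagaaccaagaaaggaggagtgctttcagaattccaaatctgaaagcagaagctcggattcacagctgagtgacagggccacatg
Cacna1c middle promoter: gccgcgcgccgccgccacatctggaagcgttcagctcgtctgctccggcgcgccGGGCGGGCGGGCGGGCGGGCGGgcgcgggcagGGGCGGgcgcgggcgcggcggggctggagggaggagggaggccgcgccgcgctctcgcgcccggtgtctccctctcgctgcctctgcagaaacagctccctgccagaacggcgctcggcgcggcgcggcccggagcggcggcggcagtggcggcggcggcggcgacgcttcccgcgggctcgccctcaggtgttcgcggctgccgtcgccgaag
The upstream promoter has 51.3% G and C bases, 3 CpG dinucleotides and 0 matches to the 4 motifs. The middle promoter has 81.3% G and C bases, 57 CpG dinucleotides and 6 matches to GGGCGG, some of which overlap. Over the 32851 RefSeq promoters searched, GGGCGG was in 35.7%, TATAAA in 13.6%, TGACGTCA in 1.79% and CAAGGTCA in 1.56%, and the median promoter had 7 CpG dinucleotides.

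Counts of Cacna1d also divided between transcripts from a pair of starts of unlike base composition. Transcripts from the downstream start held 53.3% of its counts in library 1 and 75.7% in library 2, and those from the upstream start 18.5% and 0.826%. In the second quantification the downstream start held 53.5% and 64.9%, and the upstream start 39.1% and 30.7%. Over all transcripts the downstream start was thus ahead in both libraries by both quantifications. That lead included a transcript annotated for nonsense-mediated decay, Cacna1d-208. Over coding transcripts alone, library 1 of the second quantification went the other way, with 39.96% of estimated counts from the downstream start and 60.04% from the upstream start, while library 2 had 53.9% and 46.1%. The share of the upstream start rested on the assignment of a single coding transcript, Cacna1d-202, with 119 counts in library 1 and 0 in library 2 against 291 and 230 estimated counts in the second quantification. The promoters lie at chr14:30353437-30353736 (downstream) and chr14:30491107-30491406 (upstream), minus strand.
Cacna1d downstream promoter: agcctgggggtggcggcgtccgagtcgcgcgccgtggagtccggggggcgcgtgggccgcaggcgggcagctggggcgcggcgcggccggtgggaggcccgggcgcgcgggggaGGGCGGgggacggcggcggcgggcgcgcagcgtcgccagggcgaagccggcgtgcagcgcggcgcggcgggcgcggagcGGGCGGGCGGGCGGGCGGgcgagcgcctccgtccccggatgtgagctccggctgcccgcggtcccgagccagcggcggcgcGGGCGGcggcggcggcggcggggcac
Cacna1d upstream promoter: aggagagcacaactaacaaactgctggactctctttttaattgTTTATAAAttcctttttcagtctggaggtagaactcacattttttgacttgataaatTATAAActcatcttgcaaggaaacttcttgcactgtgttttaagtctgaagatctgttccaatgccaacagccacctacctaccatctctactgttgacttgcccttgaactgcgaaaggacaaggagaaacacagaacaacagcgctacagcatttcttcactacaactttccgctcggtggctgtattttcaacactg
The downstream promoter has 87.3% G and C bases, 63 CpG dinucleotides and 6 matches to GGGCGG. The upstream promoter has 40.3% G and C bases, 4 CpG dinucleotides and 3 matches to TATAAA.

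Between the libraries, the abundant members moved little. Ratios are library 1 over library 2 of counts scaled by the trimmed mean of M values (TMM), with 95% intervals for counting error only. With 2 libraries of 1 group there is no test. Cacna1c stood at 0.893 (0.858 to 0.930), Cacna1h at 0.869 (0.835 to 0.904), Cacna1d at 0.992 (0.888 to 1.11) and Cacna1a at 1.06 (0.875 to 1.30). Cacna1c and Cacna1h were thus lower in library 1, and the intervals of Cacna1d and Cacna1a included 1.

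Cacna1b stood at 1.29 (1.04 to 1.59), higher in library 1, as were 6216 of 12171 genes with a mean of at least 100 counts. Also higher there were 7 of 7 chromaffin markers, led by Chgb and Chga, and 4 of 4 neuron markers, led by Snap25 and Rbfox3. The neuron markers summed to 17.3 TPM in library 1 and 13.1 TPM in library 2. The same held for 2 of 2 X zone, 4 of 4 kidney and 3 of 4 Schwann markers. Higher in library 2 were 3 of 3 endothelial and 3 of 3 brown adipocyte markers. The part of any of these cell types in the ratio of Cacna1b was not tested. Among the rare genes, Cacna1s stood at 2.21 (1.01 to 5.23), Cacna1e at 0.168 (0.0316 to 0.574), Cacna1i at 0.769 (0.493 to 1.19) and Cacna1g at 1.01 (0.483 to 2.10). The wide intervals reflect the low counts. With ERCC scaling the interval of Cacna1b was 0.91 to 1.39 and that of Cacna1s 0.877 to 4.57, and the interval of Cacna1s with DESeq2 size factors was 0.9997 to 5.20, so these calls end there. With ERCC scaling Cacna1d stood at 0.865 (0.775 to 0.966), an interval that excluded 1. On the TPM scale Cacna1b had equal TPM in both libraries. Cacna1e stood at 0.458 (0.227 to 0.893) in the second quantification.

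At a mean of 100 counts or more there were 5 members, of which 0 differed over 2-fold between the libraries, against 1.37% of 12171 such genes. The interval excluded 1 for 5 of 9 members counted at a mean of 10 or more, beside 44.9% of 17308 such genes, so this count is near the background. The median absolute log2 ratio of the 5 members was 0.16, and it was 0.17 over all 12171 genes.

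The scale matters for the size of these ratios. On the TPM scale the median log2 ratio of all genes was -0.11, and Cacna1c stood at -0.60 and Cacna1h at -0.39, lower in library 1 by more than that median. With the ERCC spike-in RNAs as the scale the median of all genes was -0.19, and Cacna1c stood at -0.36 and Cacna1h at -0.40. Both genes lay below the all-gene median on each of these scales.

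Within Cacna1c the most abundant coding forms, Cacna1c-207 and Cacna1c-216, differed less between the libraries than the short transcript. Cacna1c-207 stood at 0.936 (0.879 to 0.997) and Cacna1c-216 at 1.07 (0.999 to 1.14). Cacna1c-218 stood at 0.459 (0.383 to 0.547), lower in library 1, and at 0.546 (0.479 to 0.623) in the second quantification. The only other member transcript with a mean of at least 100 counts that differed over 2-fold was Cacna1c-209, a coding form of 6906 bases, at 0.287 (0.210 to 0.384), and it stood at 0.609 (0.453 to 0.808) in the second quantification. These 2 of 11 member transcripts compare with 12.2% of 20070 transcripts of that depth, and intervals of transcripts leave out the error of dividing reads among them. The transcripts were singled out after their values were seen.

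**Figure D4:**
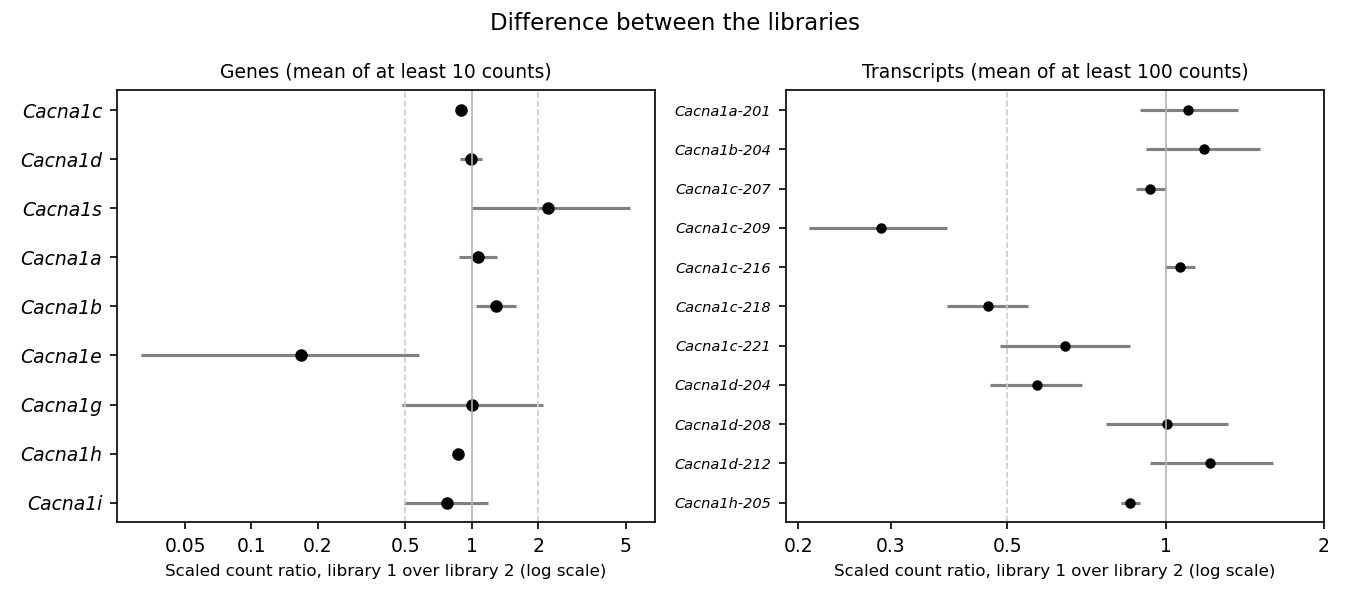
Ratio of scaled counts, library 1 over library 2 (horizontal axis, log scale), with 95% counting intervals, for the 9 member genes averaging 10 counts or more (left) and the 11 member transcripts averaging 100 counts or more (right); dashed lines mark 2-fold either way. Cacna1c and Cacna1h lie at 0.893 and 0.869, and Cacna1c-218 and Cacna1c-209 lie beyond 2-fold.

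The second quantification, rescaled with the gene table to nuclear protein-coding genes, placed none (0) of the 4 members at 1 TPM over 2-fold from the gene table, against 1.5% of 11778 genes. As a ratio of the gene table over the second quantification, Cacna1c stood at 0.848, Cacna1h at 0.799, Cacna1d at 1.26 and Cacna1a at 1.38. By these means the L-type and T-type leaders were lower in the gene table and the less abundant pair higher. The value of Cacna1h came mainly from library 2, with 0.969 in library 1 and 0.695 in library 2. The median log2 ratio of the 11778 genes was 0.116, so a ratio of 1 is not the middle of all genes.

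Calcium channels of the Cav1 and Cav2 families are known to need a beta subunit for surface expression and gating and an alpha2delta subunit for trafficking, while Cav3 channels can work without them. The 7 Cav1 and Cav2 genes summed to 28.2 TPM in library 1 and 40.3 TPM in library 2 (34.2 ± 8.54 TPM, SD, n = 2). Of the 4 alpha2delta genes, 2 reached 1 TPM in both libraries, beside 53.5% of the 22015 nuclear protein-coding genes. The 4 genes summed to 35.5 TPM in library 1 and 50.9 TPM in library 2. Cacna2d1 led with 32.1 TPM in library 1 and 47.5 TPM in library 2. Of the 4 beta genes 3 reached 1 TPM, and the sum was 19.7 TPM and 21.6 TPM, led by Cacnb2 at 12.5 TPM and 14.7 TPM. Each accessory family thus had a single leading gene, as the Cav1 and Cav3 families did.

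Of the 8 gamma genes, which include the skeletal muscle gamma subunit Cacng1 and regulators of AMPA receptors, 1 reached 1 TPM in both libraries. It was Cacng7, at 3.26 TPM in library 1 and 3.17 TPM in library 2, while Cacng1 and Cacng6 had 0 counts in both. The RGK proteins are small GTPases that inhibit Cav1 and Cav2 channels, and 2 of 4 reached 1 TPM. Gem led them, with 1800 counts in library 1 and 2767 counts in library 2, at 27.0 TPM and 44.0 TPM, a level of the order of Cacna1c itself. Of the 3 Stac adaptors, which bind L-type channels, 2 reached 1 TPM, led by Stac at 2.25 TPM and 1.75 TPM. All 4 genes of the sodium leak channel complex reached 1 TPM, led by Unc80 at 3.15 TPM and 3.32 TPM. Nalcn, the channel of this complex and a relative of the calcium channels, had 1.75 TPM in library 1 and 1.66 TPM in library 2. Of the 22015 nuclear protein-coding genes 53.5% reached 1 TPM in both libraries, and the lists are too short to read their counts as traits.

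**Figure D5:**
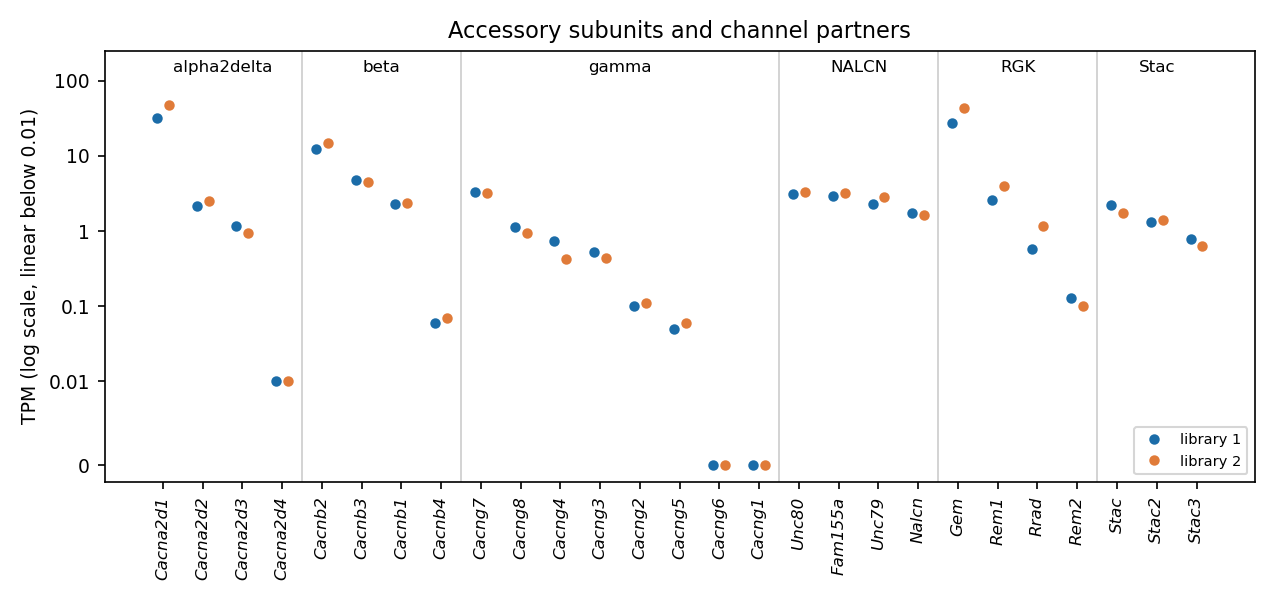
Level in TPM (vertical axis, log scale, linear below 0.01) of each accessory subunit and partner gene in library 1 (blue) and library 2 (orange), grouped as alpha2delta, beta, gamma, sodium leak channel complex (NALCN), RGK and Stac genes. Cacna2d1, Cacnb2 and Gem exceed 10 TPM in both libraries, and Cacng6 and Cacng1 sit at 0.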

How the data were processed

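For each library, transcripts were quantified in 2 ways, the first of which also gave a table of genes. Per the deposited file list, all used mm10 and GENCODE M21, the first way started from transcriptome alignments and the second from reads and a transcript index, and the column names are those of RSEM and of kallisto. The sources used here give no program versions or settings. Values the authors deposited are expected counts (estimated reads, not normalised) and TPM, which sums to 1000000 over all rows of a file. The deposited percent is a transcript's part of its gene's TPM. The deposited interval bounds, on a signal scale in TPM, have no stated level.

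The members and all lists were chosen with earlier results of these data known. Library totals over annotated genes were scaled by TMM in edgeR 4.0.16 on the 16570 genes that passed filterByExpr, after rounding counts. Alternatives used DESeq2 1.42.0 size factors, total counts, ERCC counts, no filter and the second table, which held 55450 of the 55536 genes. Log2 ratios had a prior of 0.5 counts. Ratio intervals are exact Clopper-Pearson 95% intervals of the share of pooled counts, and they and the limit of 3 counts cover counting error only, since amplified reads are not independent molecules. The ratio step was tested on simulated counts. Transcript starts were grouped within 1000 bases of a RefSeq start. All 10 members were named, and of each partner list the most abundant gene, any gene at 10 TPM or more and any at 0 counts. Nalcn was named as well. A further partner list is not reported here. A member counted as detected at 1 TPM or more in both libraries. Proteins were not compared, and filter codons were read from annotated transcripts instead. R 4.3.3 and Python 3.11.15 were used.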

Additional observations from a re-analysis of the deposited data

How the results depend on the processing

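No paired analysis was possible because both libraries belong to 1 group. The number of members at 1 TPM or more in both libraries was 4 and lay between 3 and 5 under every alternative run. The summed TPM of 58.2 was 119 in the second quantification, 172 after rescaling to nuclear protein-coding genes, 37.2 on protein-coding transcripts and 37.3 on transcripts of 2000 bases or more, and 49.0 to 67.4 with 1 library left out. The Cav3 share of 41.3% was 43.6% in the second quantification, 45.8% by counts, 53.8% on coding transcripts and 46.9% on transcripts of 2000 bases or more. The Cacna1c share of 48.0% was 37.9% and 41.3% on these transcripts. In the order of the members, 6 of 10 kept their position on coding transcripts and 6 on transcripts of 2000 bases or more, with Cacna1h ahead of Cacna1c in both, and 7 kept it in the second quantification. With a minimum mean of 10 counts, 2 members, Cacna1s and Cacna1e, were over 2-fold apart between the libraries in place of 0. The matching share over all genes at that minimum is not given, so this number is not read as a trait of the members. The number with the same leading transcript was 4 on coding transcripts in place of 1. Of the single-gene ratios under alternative scalings, 57 stayed within their counting interval and 12 moved beyond it. No ratio whose interval excluded 1 under TMM changed sign in these settings, though Cacna1b came to 0.00 on the TPM scale, and ratios of Cacna1a, Cacna1d, Cacna1g and Cacna1i, whose intervals included 1 under TMM, changed sign in some, Cacna1d being at 1.04 (0.928 to 1.16) with total counts and 0.865 (0.775 to 0.966) with ERCC scaling. The restrictions to coding and to long transcripts were chosen after seeing the data, and the cause of these differences was not tested. Depth limits Cacna1e, Cacna1f, Cacna1g, Cacna1i and Cacna1s, whose counts were at most 51.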

Other observations

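Other calcium handling genes are given beside the 53.5% of 22015 nuclear protein-coding genes that reached 1 TPM in both libraries, with no test. Of 10 calmodulin kinase genes, which relay calcium signals, 7 reached 1 TPM in both libraries. They were led by Camk2d at 28.7 TPM in library 1 and 40.1 TPM in library 2, with Camk2g at 14.8 TPM and 23.5 TPM, Camk1 at 15.1 TPM and 17.0 TPM and Camkk2 at 9.48 TPM and 14.7 TPM.

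Of 11 genes for other calcium entry and release channels, 8 reached 1 TPM in both libraries. Itpr1, an inositol trisphosphate receptor of the endoplasmic reticulum, led with 55.6 TPM in library 1 and 61.0 TPM in library 2. The store sensors Stim1, at 18.9 TPM and 23.7 TPM, and Stim2, at 8.89 TPM and 13.3 TPM, and the receptor Itpr2, at 11.9 TPM and 12.5 TPM, also had a mean of 10 TPM or more. By this measure the most abundant release channel gene stood above every alpha subunit gene in both libraries of the gene table.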
